A study of Homo sapiens with 131 samples.

Results

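The mRNAs described here are 150 genes whose deposited translation efficiency was higher in DDX6-KO cells than in WT cells of both HCT116, a human colon cancer line, and HEK293T, a human embryonic kidney line. Translation efficiency sets a gene's abundance in polysomal RNA against that in total RNA. The deposited log2 table, whose exact formula is not given in the sources used here, holds 1 value per gene, genotype and line. Of 59412 rows, 18872 were not 0 in any of the 4 columns, and 9465 of these also reached a mean of 5 TPM in uninduced HCT116 libraries and 5 RPM (gene reads scaled to library size) in HEK293T libraries with unfused editors. The change in efficiency, DDX6-KO minus WT, was ranked within each line, and the 150 genes with the highest lower-of-2 ranks were taken. These values chose the genes, so efficiencies and their changes are given as a description with no test.

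DDX6 is a DEAD-box RNA helicase that represses translation and links microRNA silencing to decapping. With LSM14A, 4E-T (EIF4ENIF1) and PATL1 it gathers repressed mRNAs into processing bodies, which are cytoplasmic granules without a membrane. An mRNA held in such particles is kept from ribosomes, and loss of DDX6 dissolves processing bodies in many cell lines. The study read out contact of mRNAs with these proteins by fusing each one to an editor. Fused APOBEC1 deaminates cytidine, a C-to-U edit (STAMP). Fused ADAR2dd, the deaminase domain of ADAR2, makes A-to-I edits (HyperTRIBE). A gene's score is the percentage of its reads that carry an edit.

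The DDX6-KO and WT groups each had 2 polysome and 2 total libraries per line, which the authors combined into the single deposited values. The labels do not say how many knockout clones were used. The uninduced HCT116 libraries behind the TPM values were those of APOBEC1-DDX6 (3), APOBEC1-control (3), ADAR2dd-control (2) and APOBEC1_ADAR2dd-control (2). The tested editing groups in HCT116 were induced APOBEC1-DDX6 (3 libraries), induced LSM14A-ADAR2dd (2) and the induced dual editor APOBEC1-DDX6_LSM14A-ADAR2dd (2). Their unfused counterparts were induced APOBEC1-control (3), ADAR2dd-control (2) and APOBEC1_ADAR2dd-control (2). In HEK293T the induced dual editor (2) was set against induced APOBEC1_ADAR2dd-control (2). LSM14A-TRIBE-ID was sampled at 0, 15, 30, 60 and 120 min of Rapa, as the labels abbreviate the agent, and DDX6-STAMP-ID at 0, 15, 30 and 120 min, with 2 libraries per time. Further HCT116 fusions with 4E-T, EDC3, EDC4, PATL1, DCP2, CNOT10 and CNOT1-R had 1 or 2 libraries each. DDX6 and LSM14A were also fused in other ways. Induced DDX6-APOBEC1, DDX6-ADAR2dd, ADAR2dd-DDX6, ADAR2dd-LSM14A and LSM14A-APOBEC1 had 2 libraries each, and APOBEC1-LSM14A had 1. A further set of induced HCT116 libraries, labelled illumina, held the dual editor (2) and APOBEC1-ADAR2dd (2), read here as unfused editors. Nothing in the labels says whether same-group libraries came from separate cultures, so p-values measure only the spread between these libraries, which may be technical.

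The 83 editing libraries held between 6259071 and 13432692 reads on genes, with a median of 9976552. Uninduced HCT116 libraries carried the epithelial markers EPCAM at 403 TPM, KRT8 at 1347 TPM and CDH1 at 96.7 TPM, while the intestinal markers VIL1 and LGALS4 were near 0 (0.166 and 0.167 TPM). HEK293T libraries with unfused editors had 294 RPM of VIM and 104 RPM of NEFL.

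The promoters of the 3 genes at the top of the order are printed because these genes, on different chromosomes and with different functions, had the highest joint change. The promoter of LMAN1, a lectin that carries glycoproteins from the endoplasmic reticulum to the Golgi, lies at chr18:59359266-59359515 on the minus strand. The promoter of DLD, the dihydrolipoamide dehydrogenase of mitochondrial 2-oxoacid complexes, lies at chr7:107890857-107891106 on the plus strand. The promoter of CCT8, a subunit of the cytosolic chaperonin TRiC, lies at chr21:29073649-29073898 on the minus strand. The sequences are the 250 bases before each annotated start in RefSeq GRCh38.p14, with motif matches on either strand in capitals. The motifs were the TATA box (TATAAA), the CCAAT box (CCAAT), the GC box (GGGCGG) and the ETS motif (CCGGAAGT).
LMAN1: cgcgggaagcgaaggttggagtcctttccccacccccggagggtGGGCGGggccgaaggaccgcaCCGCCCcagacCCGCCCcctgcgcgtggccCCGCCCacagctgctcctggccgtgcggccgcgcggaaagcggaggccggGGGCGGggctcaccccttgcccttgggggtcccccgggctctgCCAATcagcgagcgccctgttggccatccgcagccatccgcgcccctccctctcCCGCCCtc
DLD: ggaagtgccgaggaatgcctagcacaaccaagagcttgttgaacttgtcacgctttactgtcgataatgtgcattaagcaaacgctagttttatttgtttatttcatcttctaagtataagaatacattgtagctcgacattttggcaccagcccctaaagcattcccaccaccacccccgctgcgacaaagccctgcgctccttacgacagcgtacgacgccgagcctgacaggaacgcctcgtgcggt
CCT8: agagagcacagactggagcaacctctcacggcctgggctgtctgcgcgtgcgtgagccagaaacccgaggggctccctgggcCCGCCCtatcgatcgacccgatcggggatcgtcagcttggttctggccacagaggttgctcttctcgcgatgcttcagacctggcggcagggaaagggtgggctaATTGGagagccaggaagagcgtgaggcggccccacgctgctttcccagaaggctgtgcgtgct

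The LMAN1 promoter held 6 GC boxes (GGGCGG) and 1 CCAAT box, that of CCT8 held 1 of each, and that of DLD held none of the 4 motifs. Across the 131 members found in the RefSeq table, GGGCGG occurred in 72.5%, CCAAT in 34.4%, CCGGAAGT in 9.92% and TATAAA in 5.34%. Among all 7896 eligible genes found there the shares were 71.3%, 35.9%, 8.38% and 4.43%, and among all 27305 promoters they were 42.3%, 33.0%, 3.64% and 11.1%. The members' promoters thus carried these letters about as often as those of other expressed genes. Their median GC content was 64.0%, against 66.0% in the other eligible genes. The members' gene spans had a median of 43.0 kb, against 31.3 kb.

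Members lay nearer the middle of all genes in DDX6-KO HCT116 cells than in WT HCT116 cells, where most were among the poorly translated. In HCT116 their median log2 efficiency was -0.15 in DDX6-KO and -1.29 in WT, while over all eligible genes it was 0.33 in DDX6-KO and -0.11 in WT. In HEK293T the members' median was 1.08 in DDX6-KO and 0.51 in WT, against 0.27 and 0.26 over all eligible genes. The members' changes ran from 0.93 to 1.69 in HCT116, with a median of 1.07, and from 0.46 to 1.12 in HEK293T, with a median of 0.56. The typical eligible gene also had a positive change, by a median of 0.35 in HCT116 and 0.10 in HEK293T. A positive change was shared by 82.5% of eligible genes in HCT116 and 63.5% in HEK293T, and 5213 genes had one in both lines.

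**Figure D1:**
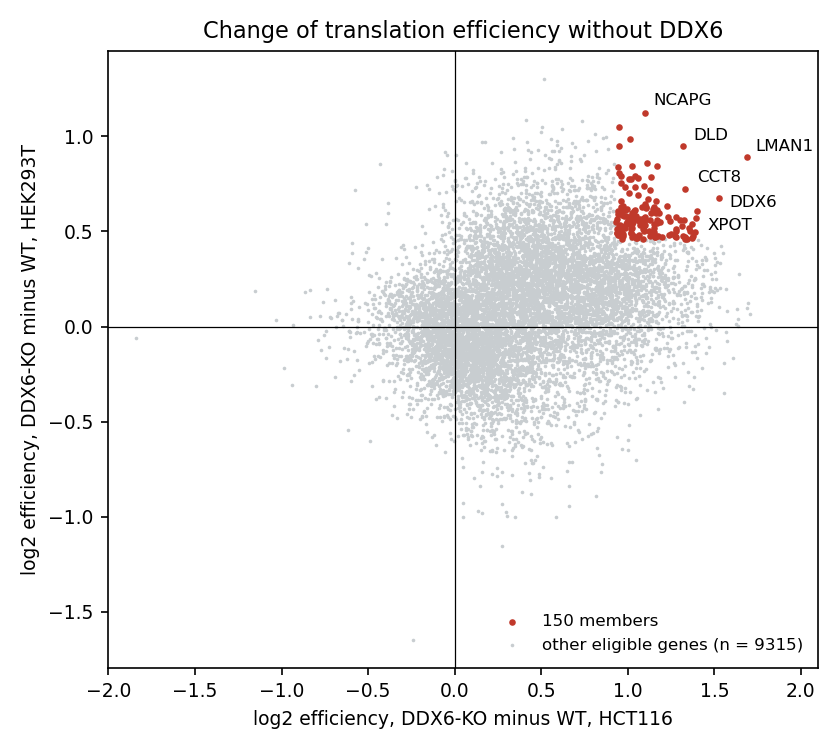
Change in log2 translation efficiency, DDX6-KO minus WT, in HCT116 (x axis) and HEK293T (y axis) for all 9465 eligible genes, with the 150 members picked out. Members fill the upper right corner because they were chosen by this value, and the rank correlation of the changes over all eligible genes was 0.333.

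LMAN1 led the order. Its log2 efficiency was -0.47 in DDX6-KO and -2.16 in WT HCT116 cells, and 2.16 in DDX6-KO and 1.27 in WT HEK293T cells. The same mRNA was thus among the poorly translated in WT cells of one line and among the well translated in the other. DLD had 0.01 in DDX6-KO and -1.31 in WT HCT116, and 1.32 in DDX6-KO and 0.37 in WT HEK293T. CCT8 had 0.22 in DDX6-KO and -1.11 in WT HCT116, and 0.24 in DDX6-KO and -0.49 in WT HEK293T. DDX6, the deleted gene, was itself the fourth. Its transcript had -0.18 in DDX6-KO and -1.71 in WT HCT116, and 0.85 in DDX6-KO and 0.18 in WT HEK293T. They are values of the transcript left in the knockout cells and do not check the deletion. ARCN1, the delta subunit of the COPI coat, was the fifth, with 0.12 in DDX6-KO and -1.10 in WT HCT116, and 0.10 in DDX6-KO and -0.53 in WT HEK293T.

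The next members by rank were MTERF3, a mitochondrial transcription factor, ATP2C1, the Golgi calcium pump, and MTIF2, a mitochondrial translation initiation factor. They were followed by HNRNPH1, a splicing regulator, ERP44, a chaperone that retains proteins in the early secretory pathway, TXLNG and XPOT, the exporter of tRNA from the nucleus. IFT57, TTC27, OAT, GNL3, HIPK2, DDX50, DDAH1 and AP3M1 completed the first 20. The largest change of any member in HEK293T was that of NCAPG, a condensin subunit, at 1.12, beside 1.10 in HCT116. The last members inside the threshold were KPNB1, DNAJA2, COP1, AKTIP and HSPD1, which has the lower rank of 8420, and the first genes outside it were AP1G1, KLHDC10, ZNF473, XRCC5 and APP. AP1G1 had changes of 1.02 in HCT116 and 0.46 in HEK293T, so the limit cuts a continuous range.

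WT efficiency differed between the lines for the same members. In DDX6-KO HCT116 cells 40 of the 150 lay in the lowest 10% of eligible genes, 114 below the median and 62 had a log2 value above 0. In WT HCT116 cells 73 were in the lowest 10%, 113 in the lowest 25% and 144 below the median, and 5 had a value above 0. In DDX6-KO HEK293T cells 116 were above the median of eligible genes and 81 in the highest 25%, and 125 had a value above 0. In WT HEK293T cells 91 were above the median, 62 in the highest 25%, and 103 had a value above 0. The median member sat at percentile 28.1 in DDX6-KO and 10.3 in WT HCT116 cells, and at percentile 78.5 in DDX6-KO and 66.0 in WT HEK293T cells.

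**Figure D2:**
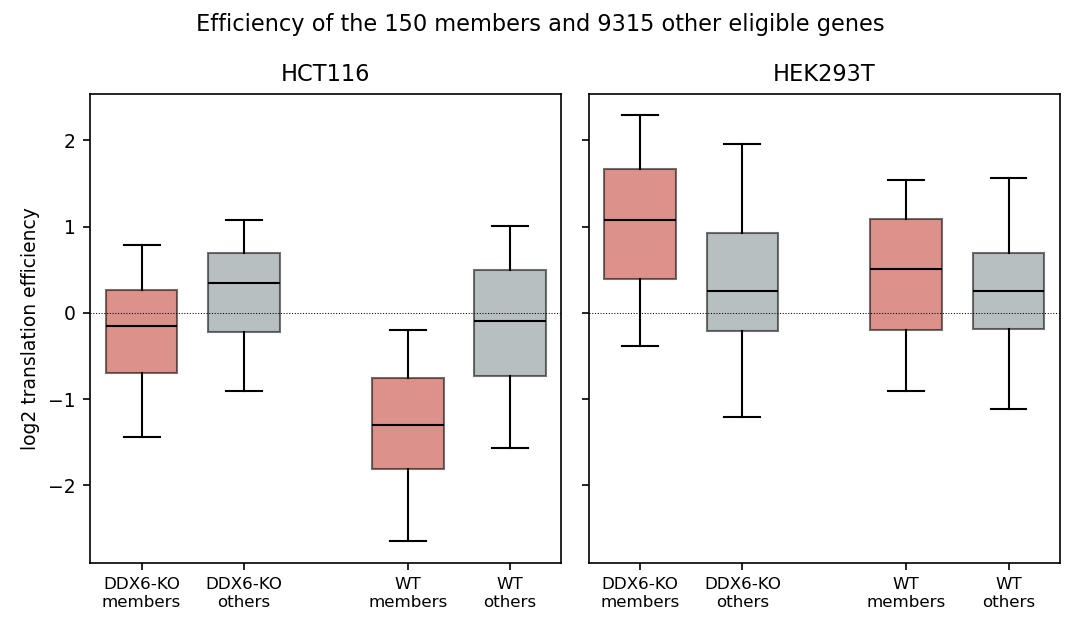
Log2 translation efficiency of the 150 members and of all other eligible genes in DDX6-KO and WT cells of each line; boxes span the quartiles, the line is the median and whiskers run from the 5th to the 95th percentile. Members sit low in HCT116 and high in HEK293T, and above their own WT level in DDX6-KO cells of both lines.

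The lowest WT efficiencies among members in HCT116 belonged to HSPH1 (-3.27), a co-chaperone of HSP70, KPNB1 (-3.07), the import receptor importin beta, SLC38A2 (-3.01), a neutral amino acid transporter, HSP90B1 (-3.0), the HSP90 of the endoplasmic reticulum, and AKAP12 (-2.89), a kinase scaffold. The highest were PDCL3 (0.69), LDHB (0.57), OSTF1 (0.45), BPGM (0.35) and BTBD10 (0.31). In HEK293T the lowest were PARP1 (-2.33), a DNA damage sensor, IMMT (-1.79), HNRNPK (-1.74), CCT2 (-1.31) and OAT (-1.27), and the highest were AK6 (2.27), PTPN11 (1.92), PNRC2 (1.91), IFNAR1 (1.83) and AK3 (1.82). No gene is among the 5 lowest of both lines. Across eligible genes the WT efficiencies of the lines had a rank correlation of -0.00777 and the DDX6-KO efficiencies one of -0.0587. The change correlated with WT efficiency at -0.684 in HCT116 and 0.391 in HEK293T. The change contains the WT value, and all genes of a line share its libraries.

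Several chaperones were members. For scale, 1.58% of all eligible genes were members and 55.1% had positive changes in both lines. Of the 8 subunits of TRiC, which folds actin and tubulin, 5 were members (CCT8, CCT6A, CCT2, CCT5 and TCP1), and all 8 had positive changes in both lines, with medians of 0.97 in HCT116 and 0.48 in HEK293T. CCT2 had 0.21 in DDX6-KO and -0.80 in WT HCT116, and -0.76 in DDX6-KO and -1.31 in WT HEK293T. The subunits outside the 150 were CCT4, CCT3 and CCT7, whose changes in HCT116 were 0.75, 0.36 and 0.13. Among 21 other chaperones of the HSP60, HSP70, HSP90 and HSP110 families and of the endoplasmic reticulum, the members were ERP44, HSP90B1, CANX, HSPH1 and HSPD1. HSP90B1 had -1.91 in DDX6-KO and -3.0 in WT HCT116, and 1.02 in DDX6-KO and 0.45 in WT HEK293T. The TRiC and chaperone lists, like those of tRNA synthetases and hnRNP proteins below, were drawn up after the values were seen.

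Of 36 aminoacyl-tRNA synthetases, which charge tRNAs, 4 were members (TARS1, IARS2, NARS1 and RARS1) and 28 had positive changes in both lines. TARS1 had -1.19 in DDX6-KO and -2.36 in WT HCT116, and -0.20 in DDX6-KO and -0.76 in WT HEK293T. The 23 hnRNP proteins, which package and splice pre-mRNA, included HNRNPH1, HNRNPK, RBMX and HNRNPA2B1, and 17 of the 23 had positive changes in both lines. Of 35 DEAD and DEAH box helicases, the members were DDX6, DDX50, DDX42 and DDX46. Mitosis genes gave 3 members of 46 (NCAPG, NUF2 and BUB1B). Solute carriers gave 4 of 171 (SLC38A2, SLC38A1, SLC35B3 and SLC39A6).

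Of 23 processing-body and decapping factors the members were DDX6 and IGF2BP2, and of 27 CCR4-NOT, PAN and microRNA silencing factors the only member was CNOT6, a deadenylase, which had -0.36 in DDX6-KO and -1.33 in WT HCT116, and 2.21 in DDX6-KO and 1.63 in WT HEK293T. None of 79 cytosolic ribosomal protein genes was a member: 8 of them had a positive change in HCT116 and 54 in HEK293T, with medians of -0.22 and 0.08. None of 64 oxidative phosphorylation genes was a member either, with 15 positive in HCT116 and 52 in HEK293T. Most ribosomal and oxidative phosphorylation genes had negative changes in HCT116 and positive ones in HEK293T, where 82.5% and 63.5% of eligible genes had positive ones.

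The members were abundant mRNAs. Their median level was 64.5 ± 7.11 TPM (SD, n = 10 uninduced HCT116 libraries of different constructs), against 27.6 ± 2.06 TPM for the other eligible genes. In HEK293T libraries with unfused editors the median was 137 RPM, against 61.1 RPM for the other eligible genes. The lowest member in HCT116 was THAP10 at 5.6 TPM and the highest AKAP12 at 1398 TPM. Scores of unfused editors differed between 3 equal classes of the tested eligible genes by reads. In ADAR2dd-control libraries the median over the other eligible genes was 0.442% in the lowest class and 0.0753% in the highest. Testing needed 10 edited reads over the comparison, so genes with few reads entered only with high enough scores. That filter can widen the contrast between classes. Members' scores are therefore also given by read class further on.

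Editing of the members depended on the fusion. Over all members with at least 20 reads in a library, median scores exceeded those over the other eligible genes in 10 of 40 combinations of fusion and editor, in all libraries of each, and in 0 of 10 combinations with unfused editors or at 0 min. In APOBEC1-DDX6 libraries the members' median was 1.43 ± 0.045%, against 1.06 ± 0.057% for the other eligible genes (SD, n = 3). In LSM14A-ADAR2dd libraries it was 4.38 ± 0.56%, against 3.75 ± 0.11% (n = 2). LSM14A-APOBEC1 and APOBEC1-PATL1 gave 0.685 ± 0.050% and 0.677 ± 0.065% for members, against 0.643% and 0.611%, gaps of 0.0422 and 0.0655 points that are about the size of the SD over 2 libraries. The HEK293T dual editor gave 5.14 ± 0.057% A-to-I and 3.47 ± 0.035% C-to-U for members, against 4.64% and 2.25%. The HCT116 dual editor gave 4.18 ± 0.10% A-to-I and 1.11 ± 0.0048% C-to-U, against 3.75% and 0.888%. A further set of HCT116 dual editor libraries, labelled illumina, gave 4.24% and 1.22%, against 3.8% and 1.03%.

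The other 30 combinations gave members lower median scores than other genes. DDX6-APOBEC1 gave 0.245 ± 0.0059% for members, against 0.376% for the other eligible genes, and DDX6-ADAR2dd gave 0.5 ± 0.014%, against 0.617%. ADAR2dd-LSM14A gave 0.302%, against 0.400%, and APOBEC1-LSM14A, with 1 library, 0.124% against 0.291%. The strongest other A-to-I fusion, 4E-T-ADAR2dd, gave 1.53 ± 0.0085% for members, against 2.07% for the other eligible genes. The lowest member median was that of DCP2-APOBEC1, in which DCP2 is the enzyme that removes the cap, at 0.0154%, against 0.202%; with members chosen at a minimum of 10 TPM and RPM it was 0.0271%. CNOT1-R-APOBEC1, CNOT10-APOBEC1 and APOBEC1-CNOT10, with 1 library each, gave 0.0445, 0.0452 and 0.0562% for members, against 0.221, 0.195 and 0.220%. Unfused editors gave members 0.0716% in ADAR2dd-control and 0.177% in APOBEC1-control, against 0.176% and 0.379% for the other eligible genes, so fusions near these levels cannot be told from the unfused editor.

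**Figure D3:**
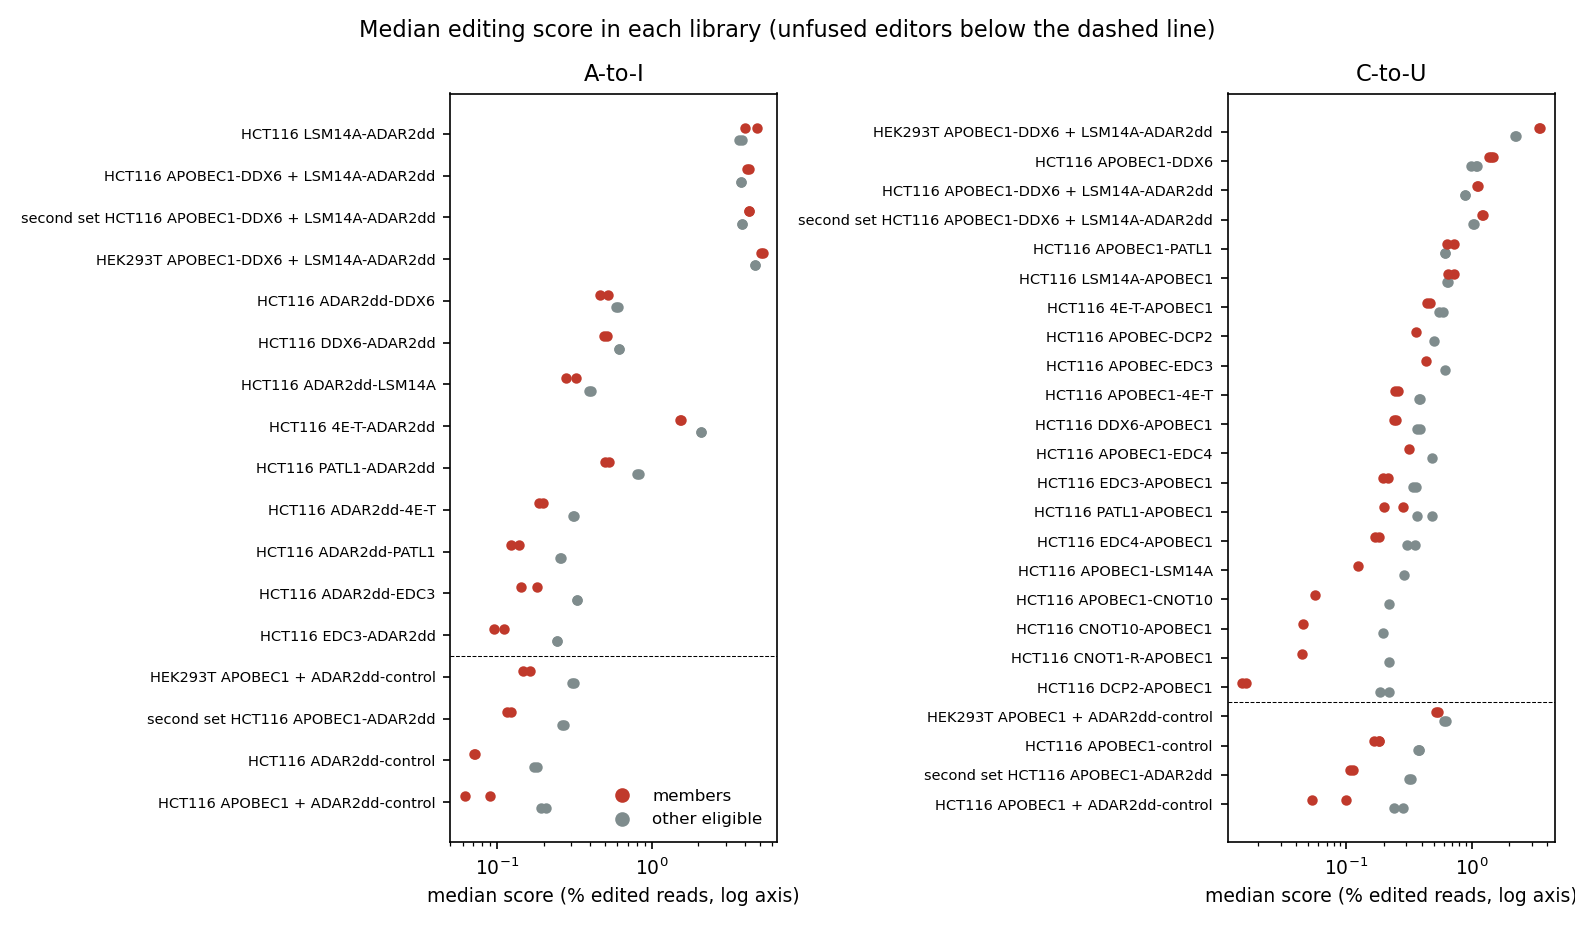
Median editing score (percentage of reads edited, log axis) over the members and over the other eligible genes for each fusion, with unfused editors for reference below the dashed line. Each point is 1 library, with 1 to 3 libraries per group, and the time courses are left out. Members lie to the right of the other genes for APOBEC1-DDX6, LSM14A-ADAR2dd and the dual editors and to the left under every unfused editor.

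Tests of single genes compared edited reads between each fusion and its unfused editor with edgeR's quasi-likelihood test, in 2 forms. The absolute form asks whether a gene's score is higher. The relative form divides each library's scores by its library-wide edited share. A gene is thus set against the rise of the pooled reads, in which genes with many reads weigh most. A gene was tested if all libraries had at least 20 reads on it and the comparison at least 10 edited reads in total, and calls were made at an adjusted p below 0.05 (Benjamini-Hochberg over all genes tested). Members that could not be tested had too few edited reads, except 1 with fewer than 20 reads in a library of APOBEC1-DDX6 against its control, and THAP10 and ADGRG6, which were each missing from 1 table.

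LSM14A-ADAR2dd raised the absolute score of 136 of 141 tested members and lowered none, where 93.1% of all genes tested were higher and 0.0357% lower. In the relative form 39 members were higher and 15 lower, where 12.6% of all genes were higher and 10.8% lower. With median-ratio offsets the split was 69 higher and 5 lower, where 24% of all genes were higher and 4.55% lower. HSP90B1 had 6.30 and 5.68% of reads edited in LSM14A-ADAR2dd libraries, against 0 of 18725 reads in ADAR2dd-control libraries, which is at least 371-fold higher with the control set at 3 counts over the group (adjusted p = 4.1e-14, edgeR's quasi-likelihood test). EIF4G2, a translation initiation factor that works without the cap-binding protein, had 4.98 and 5.29%, against 0 of 20955 reads, at least 361-fold higher. HNRNPK, an RNA-binding protein, had 5.01 and 4.58%, against 0 of 16883 reads. Both fusion libraries lay above both control libraries for these genes, which was a condition of their choice. CCT5 was at the other end, with 6.46 and 5.30% in LSM14A-ADAR2dd libraries and 3.82 and 4.35% in ADAR2dd-control libraries. Its absolute log2 ratio was 0.51 ± 0.15 (SE, adjusted p = 0.00329) and its relative one -3.89 ± 0.16 (adjusted p = 4.8e-11), both by edgeR's quasi-likelihood test. PHAX, an adaptor for snRNA export, had 8.61 and 11.9%, against 4.36 and 4.69%, and was also lower in the relative form. The direction for CCT5 was not shared: in the A-to-I comparisons of the HCT116 and HEK293T dual editors it was higher in the relative form.

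APOBEC1-DDX6 raised the absolute score of 116 of 137 tested members and lowered none, where 52% of all genes tested were higher and 2.73% lower. In the relative form 50 members were higher and 4 lower, where 11% of all genes were higher and 20.3% lower. SLC38A2 had 0.950, 0.794 and 0.844% in APOBEC1-DDX6 libraries, against 0 of 30222 reads in APOBEC1-control libraries, at least 87.4-fold higher. These fusion scores were below the 1.06% median of the other eligible genes, and the fold rests on a control with no edited read. TM9SF2, a membrane protein of endosomes and the Golgi, had 1.51, 1.47 and 1.58%, against 0 of 5942 reads. IDH1, the cytosolic isocitrate dehydrogenase, had 3.13, 4.34 and 2.87%, against 0, 0.0507 and 0%. In each of these genes the 3 fusion libraries lay above the 3 control libraries, again a condition of their choice. CANX, a lectin chaperone of the endoplasmic reticulum, had 4.70, 5.48 and 5.10%, against 0.260, 0.186 and 0.227%, with a relative log2 ratio of 2.43 (adjusted p = 2.31e-11, edgeR's quasi-likelihood test). LMAN1 had 3.51, 3.61 and 3.55%, against 0.126, 0.216 and 0.0440%. BRD7, a chromatin reader, had 0.147, 0.172 and 0.185%, against 0.193, 0.190 and 0.282%, and was called lower in the relative form only (log2 ratio -2.37 ± 0.89, adjusted p = 0.0384, edgeR's quasi-likelihood test).

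The HCT116 dual editor carries both fusions in the same cells. Its A-to-I score was higher for 137 of 142 tested members and lower for none, where 94.8% of all genes were higher and 0.0534% lower, and in the relative form for 47, with 10 lower, where 11.8% of all genes were higher and 10.2% lower. Its C-to-U score was higher for 106 of 123 tested members and lower for none, where 50.6% of all genes were higher and 0.639% lower, and in the relative form for 50, with 2 lower, where 11.2% of all genes were higher and 13.2% lower. CCT8 had 7.09 and 7.75% A-to-I in dual editor libraries, against 0 of 9772 reads in APOBEC1_ADAR2dd-control libraries, at least 241-fold higher. UBQLN1, a shuttle protein for ubiquitinated substrates, had 2.37 and 2.29% C-to-U, against 0 of 8830 reads, and OAT, a mitochondrial ornithine aminotransferase, 2.29 and 2.42%, against 0 of 7747 reads. For all 3 the groups did not overlap, which was a condition of their choice. CAB39, a scaffold of the LKB1 kinase, had 5.85 and 5.86% A-to-I, against 1.87 and 2.11%, and HIPK2, a nuclear kinase, had 2.71 and 2.62% C-to-U, against 1.13 and 1.24%. Both were lower in the relative form.

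In HEK293T the dual editor raised A-to-I scores of 143 of 148 tested members and lowered none, where 94.5% of all genes were higher and 0.0107% lower. It raised C-to-U scores of 139 of 147 and lowered none, where 67.6% of all genes were higher and 0.0957% lower. In the relative form 38 members were higher and 9 lower in A-to-I, where 8.72% of all genes were higher and 5.98% lower, and median-ratio offsets gave 55 higher and 4 lower, where 15.2% were higher and 2.89% lower. For C-to-U, 31 were higher and 3 lower, where 6.23% of all genes were higher and 4.85% lower. PARP1 had 4.15 and 4.14% A-to-I in dual editor libraries, against 0 of 28081 reads in APOBEC1_ADAR2dd-control libraries, at least 388-fold higher. Its A-to-I scores under the dual editor were below the 4.64% median of the other eligible genes. Its C-to-U score was 2.92 and 2.56%, against 1.35 and 1.53%, the smallest fold of the called members (1.91) and lower in the relative form. The editors thus ranked PARP1 at opposite ends. HSPD1, the mitochondrial HSP60, had 1.52 and 1.41% C-to-U, against 0 of 15310 reads, at least 75.1-fold higher. These dual editor scores were below the 2.25% median of the other eligible genes, and the fold rests on a control with no edited read. PNRC2, a protein that links decapping to nonsense-mediated decay, had 3.95 and 3.91% C-to-U, against 0 of 2311 reads. DDX6 had 5.54 and 5.62% A-to-I, against 1.63 and 1.90%, on 27878 reads in dual editor libraries and 3562 in control libraries. Reads from the DDX6 transgene and from the endogenous gene cannot be told apart.

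Leaving out 1 library of a pair leaves that group with 1 library, whose spread is then assumed to be that of the other group. With any library left out, fewer or no members were called in the relative form for LSM14A-ADAR2dd and for each of the 4 dual editor comparisons. Such a fit leaves 1 residual degree of freedom, whether a fusion or a control library is left out. The relative calls of these comparisons were therefore not shown to be stable. For APOBEC1-DDX6, with 3 libraries per group, 45 to 49 members were called with any library left out. The 31 C-to-U calls in HEK293T were 9 by DESeq2 and 0 by limma, and for HCT116 the 50 were 27 and 20.

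Over the 6 comparisons of a fusion with its unfused editor, 68 members were higher in the relative form in none and 10 in all. Of the 118 members tested in all 6, 38.1% were higher in none and 8.47% in all, where of all 5486 genes so tested 69.3% were higher in none and 1.48% in all. The 10 were DYNC1LI2, a dynein light intermediate chain, CANX, GOLM1, HNRNPK, HMGCS1, the cytosolic HMG-CoA synthase, EIF4G2, PITPNB, HNRNPA2B1, CPNE3 and NAA50. Another 12 were higher in 5, among them CCT8, HSP90B1, SLC38A2, OAT, PARP1 and HSPD1. LMAN1 was lower in the relative form in all 3 A-to-I comparisons and higher in all 3 C-to-U comparisons: its A-to-I score was 10.1 and 9.32% in LSM14A-ADAR2dd libraries, against 1.27 and 1.16% in ADAR2dd-control libraries. PHAX, CAB39 and IFNAR1 were also lower in 3. Between comparisons with no shared library, LSM14A-ADAR2dd and APOBEC1-DDX6 had 26 higher members in common, 66.7% of the 39 and 52% of the 50, where over all genes the shared calls were 34.2% and 39.4%. The A-to-I comparisons of the lines shared 29, which is 61.7% of the HCT116 calls and 76.3% of the HEK293T calls, against 46.8% and 63.1% over all genes. The C-to-U comparisons shared 20, which is 40% of the HCT116 calls and 64.5% of the HEK293T calls, against 25.9% and 39.2% over all genes.

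Since members had more reads than other genes, scores were also compared within 3 equal classes of all tested eligible genes by reads, added after the data were seen. In the class with most reads, which held 93 of the members tested for APOBEC1-DDX6, their median fusion score was 1.5%, against 0.897% for the other genes. In the HCT116 and HEK293T dual editors the C-to-U medians there were 1.15% and 3.18% for members, against 0.814% and 2.27% for the other genes. A-to-I medians in that class were closer: 5.12%, 4.36% and 5.42% for members under LSM14A-ADAR2dd and the HCT116 and HEK293T dual editors, against 4.88%, 4.25% and 5.21%. Under their unfused editors the A-to-I medians there were 0.0325%, 0.0313% and 0.101% for members, against 0.0753%, 0.0882% and 0.185%. Unfused C-to-U medians were 0.140% and 0.0497% for members in HCT116 (APOBEC1-control and APOBEC1_ADAR2dd-control), against 0.232% and 0.130%. In HEK293T they were 0.459%, against 0.384%. The part of these control scores in the relative calls was not tested. In the middle class the C-to-U medians of members were above and the A-to-I medians below those of other genes in all 3 comparisons of each editor. In the class with fewest reads the direction varied, with HCT116 C-to-U at 1.57% for 13 members, against 1.73%, and HCT116 A-to-I at 5.0% for 18 members, against 3.95%. All classes hold only genes with at least 10 edited reads over the comparison, which favours high scores among genes with fewest reads. How far depth bears on the members' scores was not tested beyond these classes.

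The relation between editing and the change in efficiency across eligible genes varied with the construct. For APOBEC1-DDX6 over its control, with unedited controls set at 3 counts, the score ratio had a rank correlation of 0.463 with the change in HEK293T and 0.224 with that in HCT116, over 7530 genes. For the HCT116 dual editor's C-to-U ratio the values were 0.467 and 0.208 over 6491 genes, and for that of HEK293T 0.338 and 0.176 over 7695. A-to-I ratios had -0.0188 and 0.0316 for LSM14A-ADAR2dd over 7831 genes, 0.0878 and 0.0843 for the HCT116 dual editor over 8461, and 0.142 and 0.118 for that of HEK293T over 8583. LSM14A-TRIBE-ID, also A-to-I, had 0.0721 to 0.114 with the change in HEK293T and 0.174 to 0.239 with that in HCT116 over its times and 8528 genes. DDX6-STAMP-ID, which is C-to-U, had -0.00123 and 0.00406 at 120 min over 7633 genes. C-to-U editing also moved with WT efficiency. The ratios of APOBEC1-DDX6 and the HCT116 and HEK293T dual editors had 0.306, 0.348 and 0.188 with WT efficiency in HEK293T. With WT efficiency in HCT116 they had -0.200, -0.194 and -0.145. Their fusion scores alone had 0.467, 0.491 and 0.519 with WT efficiency in HEK293T, and 0.392, 0.357 and 0.451 with the change there. The genes share libraries and depth, and members are among them, so these are descriptions.

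In the LSM14A-TRIBE-ID time course A-to-I editing of the members was higher at each later time. Their median score was 0.136, 0.399, 0.957, 2.04 and 3.73% at 0, 15, 30, 60 and 120 min, against 0.448, 0.895, 1.58, 2.62 and 3.83% for the other eligible genes. At 120 min they lay above the other genes in 1 of 2 libraries. Of 146 tested members, 49, 100, 125 and 131 were higher at 15, 30, 60 and 120 min than at 0 min, where 16.6, 46.8, 69.4 and 78.2% of all genes were. Lower were 0, 0, 0 and 1, where 0.149, 0.0425, 0 and 0.0531% of all genes were. In the relative form, added after the data were seen, 16, 37, 61 and 63 were higher, where 4.46, 11.1, 14.9 and 16.4% of all genes were, and 1, 4, 8 and 10 were lower, where 1.01, 3.2, 5.33 and 8.25% were. All 4 comparisons share the 0 min libraries.

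EIF4G2 had no edited read among 32634 at 0 min, and 0.248 and 0.262% at 15 min, 0.971 and 0.866% at 30 min, 1.91 and 1.97% at 60 min, and 4.82 and 4.03% at 120 min. CCT8 followed with 0.313 and 0.393% at 15 min, 1.47 and 1.64% at 30 min, 4.22 and 2.68% at 60 min, and 7.63 and 6.28% at 120 min, from 0 of 12503 reads at 0 min. HSPD1 reached 5.18 and 5.16% at 120 min, against 0 of 36228 reads at 0 min, at least 624-fold higher. These 3 mRNAs had no overlap between 15 min or later and 0 min in any value given. Lack of overlap was part of the choice of named members. LMAN1 started high, with 4.50 and 4.10% at 0 min, and had 5.0 and 5.95, 6.61 and 6.74, 8.32 and 7.60, and 8.78 and 11.1% at 15, 30, 60 and 120 min. CAB39 was the 1 member called lower, with 1.21 and 1.84% at 120 min, against 4.27 and 3.49% at 0 min (log2 ratio -1.35 ± 0.33, adjusted p = 0.00101, edgeR's quasi-likelihood test), and it had 5.83 and 5.29% at 60 min.

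**Figure D4:**
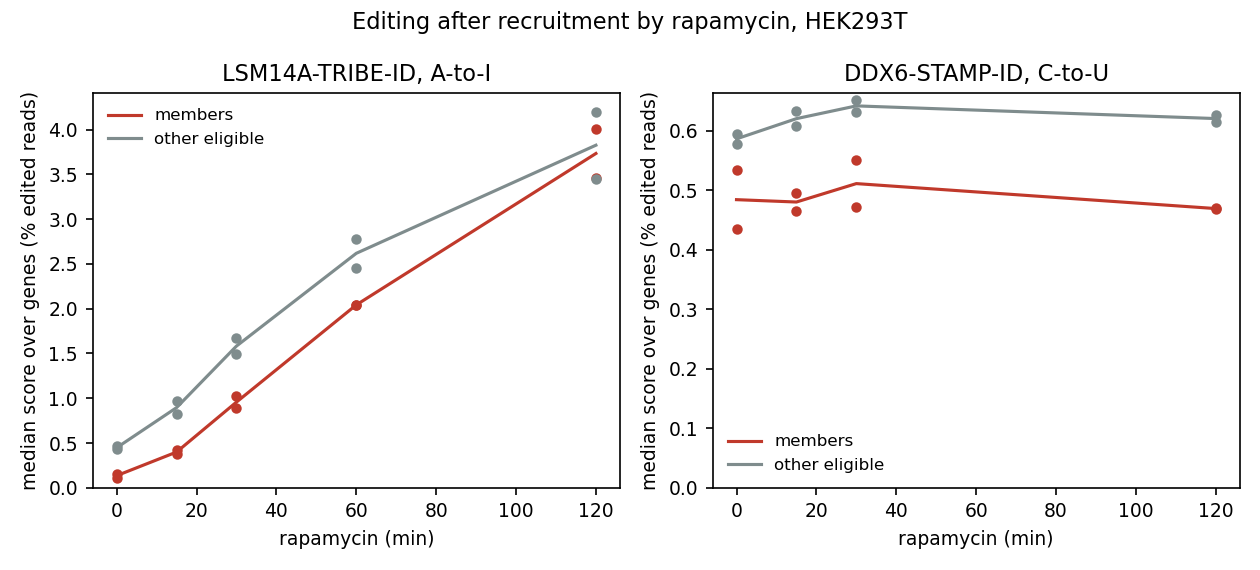
Median editing score (percentage of reads edited) of the members and of the other eligible genes against minutes of Rapa for LSM14A-TRIBE-ID and DDX6-STAMP-ID in HEK293T, 2 libraries per time. Members climb to 3.73% at 120 min under LSM14A-TRIBE-ID, from below the other genes, and stay between 0.469 and 0.511% under DDX6-STAMP-ID.

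DDX6-STAMP-ID showed no called change. The members' median C-to-U score was 0.484, 0.480, 0.511 and 0.469% at 0, 15, 30 and 120 min, against 0.587, 0.621, 0.642 and 0.621% for the other eligible genes. Of 140 tested members 0 passed edgeR's quasi-likelihood test at any time, where 0.012% of all genes were higher, and 8, 13 and 12 had an unadjusted p below 0.05 at 15, 30 and 120 min, where 4.8, 5.27 and 5.44% of all genes had. DESeq2 and limma also called 0 members at each time. In data simulated from this time course edgeR's test called 1.43% of 2-fold and 39.7% of 4-fold rises, so most changes of these sizes would be missed. LMAN1 had 1.01 and 0.707% at 120 min, against 0.436 and 0.973% at 0 min, with overlapping libraries.

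Tails were measured by nanopore sequencing of 1 dual editor library per line, so no replicate check exists and no test was made. The deposited tables list, for genes that met the authors' selection, the median tail of reads carrying both kinds of edit and of the other reads, in a unit the sources used here do not give. In HCT116 55 members were listed, which is 36.7% of the members, against 11% of the other eligible genes. In HEK293T 31 were listed, 20.7%, against 6.89%. The members were the more abundant (above), and the part of abundance in the listing was not tested. With 10 reads or more in each class, 53 members remained in HCT116 and 25 in HEK293T.

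Doubly edited reads of members had shorter tails in both lines, as did those of most listed genes. In HCT116 the median tail was 125 in doubly edited reads and 160 in other reads, and the median difference was -41.5, against -37.1 over all listed genes. Tails of doubly edited reads were shorter for 47 of 53 members, or 88.7% (exact 95% binomial interval 77.0 to 95.7%), where 83.1% of all 1028 listed genes with as many reads were. In HEK293T the medians were 89.4 and 120, the median difference was -30.3, against -33.1 over all listed genes, and 21 of 25 members, or 84%, were shorter (63.9 to 95.5%), where 89.6% of all 527 such genes were. Both intervals hold the share over all listed genes. The intervals cover counting error only and treat genes as independent. Doubly edited reads made up 23.3% of members' reads in HCT116 and 23.1% in HEK293T, against 15.2% and 11.2% over all listed genes.

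With at least 20 reads in each class, the largest shortening in HCT116 was that of PNRC2, with a median of 89.6 in 28 doubly edited reads and 178 in 177 other reads. PARP1, HNRNPH1 and UBQLN1 followed, with differences of -80.2, -78.3 and -76.9. At the other end HSPH1 (-9.19) and LAMP2 (-1.08) had the smallest shortenings, and LMAN1 (13.0) and ATP2C1 (44.1) had longer tails in doubly edited reads. In HEK293T RBMX had 27.1 in 21 doubly edited reads and 123 in 78 other reads, followed by HNRNPA2B1 (-56.3), SEPTIN2 (-55.3) and PNRC2 (-53.9). The smallest shortenings there were those of NUCKS1 (-15.1), HNRNPK (-18.0), CCT8 (-19.1) and CANX (-30.3). PNRC2 was thus among the 4 largest in both lines, of 41 members with as many reads in HCT116 and 11 in HEK293T. Of 17 members with enough reads in both lines, 14 had shorter tails in doubly edited reads in both and 3 had longer ones in HEK293T only.

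**Figure D5:**
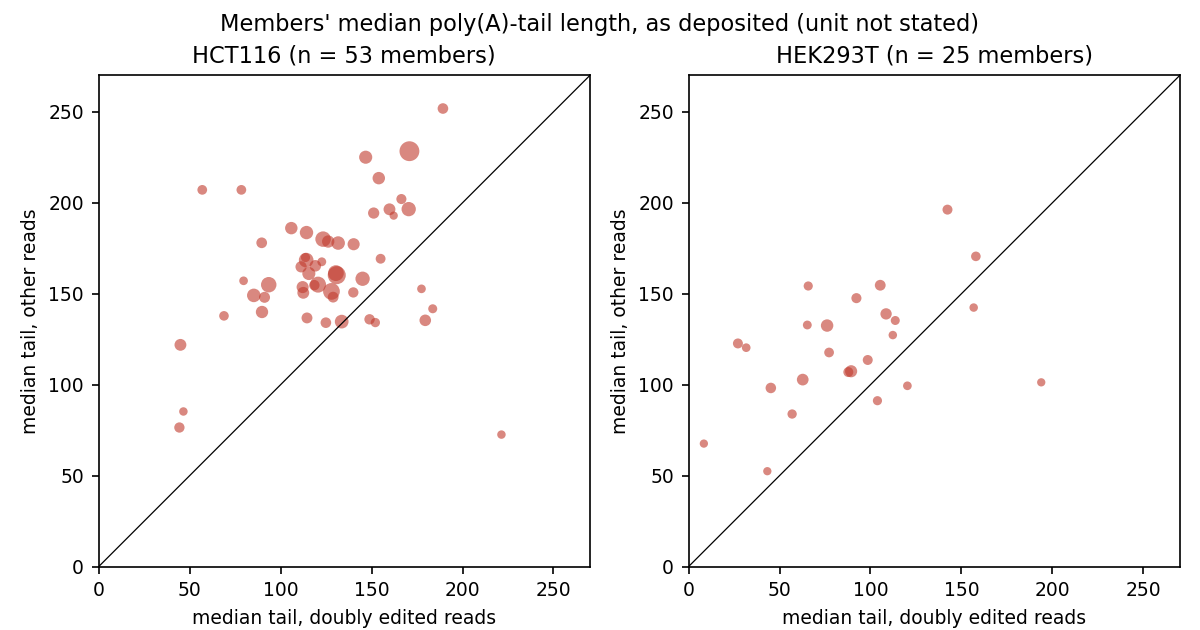
Median tail of other reads (y axis) against that of doubly edited reads (x axis), in the deposited unit, for members with at least 10 reads in each class in HCT116 (53) and HEK293T (25). Point area grows with the number of doubly edited reads and the diagonal marks equal tails. Most members lie above the diagonal, 47 in HCT116 and 21 in HEK293T, with the shorter tail in doubly edited reads.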

How the data were processed

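Reads, edited counts, TPM, log2 efficiencies and tails came from the authors' deposited tables. The editing tables hold the counts of reads and of edited reads per gene and library, with the edited fraction beside them, as the authors deposited them; here a score is edited reads over reads in percent. TPM of uninduced HCT116 libraries and log2 translation efficiencies, with replicates combined, are the authors' deposited values, and tail lengths are the deposited score per read class. Per the submitters' processing notes, the build was hg38 and the tools were STAR 2.7.9a, featureCounts 2.0.1, FastQC 0.11.9 and cutadapt 1.18; how edited sites were called is not given in the sources used here.

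Edited counts were tested with edgeR 4.0.16 (quasi-likelihood, two-sided, Benjamini-Hochberg over all genes tested) in R 4.3.3, with log(reads) as offset, or log(reads × library-wide edited share) in the relative form. Only the groups compared entered a fit, and all times of a construct shared 1 fit. Filters were 20 reads in every library and 10 edited reads per comparison. DESeq2 1.42.0, limma 3.58.1 (pseudocount 0.1%), median-ratio offsets, other filters, a replicate block and leaving out each library were tried, and for scores also summed reads and other choices of members. Scripts were tested on simulated data, where the absolute form called 1.43 to 8% of genes with a 2-fold rise and 39.7 to 76.1% of those with a 4-fold rise. Missing calls thus do not show missing change. The members, lists and named genes (the ends of each order, as printed) were chosen with earlier results of these data known. Genes named at the ends of an editing order were taken from called members whose groups' libraries did not overlap.

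Among LSM14A-TRIBE-ID libraries, those with the same number moved together in their reads (correlations 0.728 to 0.777 over 20 pairs), so these numbers may pair the libraries. The reported fits have no replicate block, and the counts with it are given with the alternatives. Reads of same-group libraries in several groups agreed within counting noise, so the spread of reads there holds little beyond counting error. Edited reads, which were tested, varied more than counting noise in every group. In HCT116 dual editor A-to-I libraries the chi-square per degree of freedom over genes was 0.984 for reads and 1.22 for edited reads. For LSM14A-ADAR2dd libraries it was 3.06 for reads and 1.60 for edited reads. A fold against a control with no edited read uses 3 counts over the group.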

Additional observations from a re-analysis of the deposited data

How the results depend on the processing

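Whether members were higher in absolute score held under every alternative within 1.5 times, except the 49 members of LSM14A-TRIBE-ID at 15 min, which were 31 by limma and as few as 26 without 1 library. Relative counts moved more. By limma they were 19 for LSM14A-ADAR2dd, 29 for APOBEC1-DDX6, 25 and 20 for HCT116 A-to-I and C-to-U, and 25 and 0 for HEK293T A-to-I and C-to-U. By DESeq2 they were 27 for HCT116 C-to-U and 9 for HEK293T C-to-U, and median-ratio offsets gave 69 for LSM14A-ADAR2dd. The cause was not tested. With 1 edited read as the minimum, 1 member was called for DDX6-STAMP-ID at each time. Tails of doubly edited reads were shorter for all 11 HEK293T members with at least 20 reads in each class, against 95.4% of all 217 listed genes with as many.

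Leaving out 1 library at a time gave 0 to 24 relative calls for LSM14A-ADAR2dd, 45 to 49 for APOBEC1-DDX6, 0 to 39 and 0 to 47 for HCT116 A-to-I and C-to-U, and 0 to 34 and 0 to 29 for HEK293T. Absolute calls were 122 to 132, 111 to 113, 132 to 138, 92 to 100, 131 to 141 and 99 to 136 in the same order. Where a pair lost a library, the lone one was assumed to vary like the other group, so the counts there, 0 or higher, do not show that calls are stable. For LSM14A-TRIBE-ID they were 26 to 49, 79 to 101, 121 to 126 and 124 to 132 at 15, 30, 60 and 120 min, and for DDX6-STAMP-ID 0 to 1. Members' median scores lay above those of other genes in 10 or 11 combinations of fusion and editor with 1 library left out, 11 because LSM14A-TRIBE-ID at 120 min turned. With summed edited reads over summed reads there were 9: A-to-I in the HEK293T dual editor turned, at 5.21% for members and 5.80% for the other genes. Summing also had 42 of 50 member scores counted as moved by more than their SD, as were 24 with members chosen at a minimum of 10. Combinations with 1 library are among the 50 and have no SD, so for them the count says nothing.

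With the replicate block, absolute counts were 134, 114, 136, 104, 141 and 139 in that order, relative counts 37, 48, 38, 51, 41 and 32, and LSM14A-TRIBE-ID counts 51, 103, 126 and 130. DDX6-STAMP-ID stayed at 0. The block moved no count by 1.5 times. Choosing members with a minimum of 1 or 10 TPM and RPM kept 147 and 144 of the 150, and ranking by the mean of both ranks kept 119.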
